A study of Mus musculus with 8 samples.

Results

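The enzymes of de novo purine synthesis were followed in mouse liver across age and in the absence of Sirt1. The 9 genes of interest were Ppat, Gart, Pfas, Paics, Adsl, Atic, Impdh1, Impdh2 and Gmps, and a probe set was taken when the platform annotation named 1 of them as its only gene. This gave 18 of 45037 probe sets, from 8 of the 9 genes: 4 for Gart, 3 each for Ppat, Paics and Gmps, 2 for Atic and 1 each for Pfas, Adsl and Impdh1. Impdh2 was not analysed here. Labelled RNA of whole liver had been hybridised to 8 Affymetrix arrays of the mouse genome, where several probe sets can read the same gene. There were 4 groups with 2 arrays each. Wild-type (WT) livers came from mice aged 3, 12 or 19 months, and livers without Sirt1 (MT) from mice aged 3 months. All were on a mixed 129/FVB/Black Swiss background, lived in a 12-h light cycle and were killed in the morning under Avertin. The MT mice lacked Sirt1 in every tissue from conception, through a targeted deletion that most embryos of this line do not survive, so the animals on the arrays were adult survivors. Nothing in the sources settles whether an array held the RNA of 1 mouse or of several, and p-values therefore measure the spread between arrays only.

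Liver builds the purine ring for its own nucleotides and exports purines to other tissues. The ring is assembled step by step on phosphoribosyl pyrophosphate (PRPP), and 6 enzymes carry it to inosine monophosphate (IMP), several of them catalysing more than 1 reaction. Ppat, the amidotransferase that makes the first committed step, is inhibited by the purine nucleotides at the end of the route. IMP is then turned into AMP through adenylosuccinate synthase and Adsl, or into GMP through the IMP dehydrogenases and Gmps.

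In the young MT livers the first enzyme of the route, Ppat, and the last enzyme on the way to GMP, Gmps, were higher than in WT livers of the same age, 2.99-fold and 2.19-fold, while no other measured enzyme passed the test. Of the 3 Gmps probe sets only 1433567_at was called, and the calls of both genes depended on the test used. Ppat and Gmps were the enzymes whose 12- and 19-month WT arrays lay above those at 3 months on every tested probe set. No age difference passed the test. Of all tested probe sets, 19.3% lay above 3 months in this way at 12 months and 26.4% at 19 months. These comparisons share the 3-month arrays with that of MT. From 12 to 19 months the dimmer Gmps probe sets were at 0.04 and -0.15. Paics, which lies next to Ppat in the genome, showed no called difference in any comparison.

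The promoters of Ppat, Paics and Gmps are shown first, because Ppat and Gmps held the calls and Paics, which starts next to Ppat, held none. The windows are RefSeq sequence of build GRCm38.p6, from 250 bases before to 50 bases after the annotated start, read along the gene's own strand. The Ppat window is chr5:76951529-76951828 on the minus strand, the Paics window is chr5:76951052-76951351 on the plus strand and the Gmps window is chr3:63975893-63976192 on the plus strand. Capitals mark matches on either strand to the E-box CACGTG, the CCAAT box CCAAT or the GC box GGGCGG.
Ppat: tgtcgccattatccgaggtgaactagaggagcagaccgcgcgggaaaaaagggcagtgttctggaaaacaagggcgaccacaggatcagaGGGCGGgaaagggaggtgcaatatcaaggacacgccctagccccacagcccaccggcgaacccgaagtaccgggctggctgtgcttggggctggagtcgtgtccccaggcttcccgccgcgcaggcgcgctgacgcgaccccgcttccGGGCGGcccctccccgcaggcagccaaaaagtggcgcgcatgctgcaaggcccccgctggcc
Paics: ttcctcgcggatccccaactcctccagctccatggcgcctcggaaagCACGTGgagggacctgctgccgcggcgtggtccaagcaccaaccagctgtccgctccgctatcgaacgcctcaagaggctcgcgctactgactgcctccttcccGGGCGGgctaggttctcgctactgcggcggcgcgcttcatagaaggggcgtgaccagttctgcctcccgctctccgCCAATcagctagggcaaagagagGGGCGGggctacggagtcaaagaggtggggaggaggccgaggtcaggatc
Gmps: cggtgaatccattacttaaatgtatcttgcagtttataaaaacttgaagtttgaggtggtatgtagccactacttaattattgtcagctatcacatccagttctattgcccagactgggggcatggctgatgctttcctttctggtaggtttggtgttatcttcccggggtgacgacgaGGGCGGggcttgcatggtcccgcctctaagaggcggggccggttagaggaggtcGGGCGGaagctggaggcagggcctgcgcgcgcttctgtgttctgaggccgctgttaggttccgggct

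The starts of Ppat and Paics lie 276 bases apart on chromosome 5, and each gene is read toward the start of the other, so that their first transcribed bases run through the same stretch in opposite directions. The E-box, a motif bound by MYC with MAX and by CLOCK with BMAL1, was matched once in the Paics window, at position -203 from the start, and in neither the Ppat nor the Gmps window. The CCAAT box was also matched in the Paics window, at -23, and in neither of the others. GC boxes were matched at -160 and -12 in Ppat, at -99 and 1 in Paics and at -71 and -17 in Gmps. Among 32851 promoter windows of the same length, 7.15% held the E-box, 37.4% the CCAAT box and 35.7% the GC box. Of the other members with a window, Atic held an E-box at -7 and a CCAAT box at -224, Gart a CCAAT box at -33, Impdh2 an E-box at -110 and a CCAAT box at 8, and Gart, Adsl, Atic, Impdh1 and Impdh2 each held a GC box. The amino acid response element TGATGNAA, present in 3.97% of windows, was matched in no member window, and no match overlapped one of another motif. These matches describe the letters of the windows only.

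The values below are MAS5 signals, a linear brightness per probe set that the authors had scaled to 1 trimmed mean for all arrays. Differences are log2 differences with their standard error, from 1 limma fit to all 8 arrays (n = 2 arrays a group), and a probe set was called when its Benjamini-Hochberg adjusted p over 22519 tested probe sets was under 0.05. Of the 18 member probe sets, 17 were in the upper 50% by mean signal and were tested. The median difference between the arrays of a group was between 0.19 and 0.26 on the log2 scale. Signals of different probe sets are not comparable as amounts of mRNA, so levels are compared between groups within a probe set. All 11 measured hepatocyte markers were above the median of the array on every array, as the label of the tissue requires. The single tested Sirt1 probe set, whose place relative to the deleted part of the gene is not known here, differed by 0.23 ± 0.20 between MT and WT at 3 months (adjusted p = 0.674) and checks neither the genotype nor the labels. On each array the 3 Xist probe sets were at percentile 95.2 or higher and the 9 probe sets of Y-linked genes no higher than percentile 43.1, whereas the methods describe the mutants used for this experiment as males.

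Ppat was read by 3 probe sets, of which 2 were tested. With 1452831_s_at, whose suffix marks probes shared by several transcripts, the signal was 331 and 334 at 3 months, 405 and 407 at 12 months and 512 and 603 at 19 months in WT mice, and 887 and 1113 in MT mice. With 1428543_at it was 221 and 193, 229 and 225, and 398 and 371 at the same WT ages, and 533 and 813 in MT mice. On both probe sets the MT arrays were the highest of all 8, the 19-month arrays came next, and the 3-month arrays were the lowest. The difference between MT and WT at 3 months was 1.58 ± 0.18 (95% interval 1.17 to 1.99, adjusted p = 0.0115) on the first and 1.67 ± 0.23 (interval 1.16 to 2.19, adjusted p = 0.0181) on the second, a fold of 2.99 and 3.19. The third probe set, 1441770_at, was below the median of the array on every array, with signals from 1.27 to 29.4, and was not tested.

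In the order of the Ppat levels, WT at 3, 12 and 19 months and then MT, no step between neighbours passed the test. On 1452831_s_at the steps were 0.29 (adjusted p = 0.713), 0.45 (adjusted p = 0.424) and 0.84 (adjusted p = 0.107). From 3 to 19 months the difference was 0.74 ± 0.18 (interval 0.33 to 1.15, adjusted p = 0.205), and on 1428543_at it was 0.90 ± 0.23 (interval 0.38 to 1.41, adjusted p = 0.218). These intervals lie above 0, and yet the differences did not pass the test across all probe sets. The MT livers were called higher than WT livers of 12 months on both probe sets, by 1.29 (adjusted p = 0.0294) and 1.54 (adjusted p = 0.0324), in a comparison that called 0.457% of all probe sets, and against WT livers of 19 months neither was called (0.84 and 0.78, adjusted p = 0.107 and 0.217, with 0.275% called). Both Ppat calls between MT and WT at 3 months rest on each of the 3-month WT arrays: without replicate 1 of that group the adjusted p was 0.113 and 0.115, and without replicate 2 it was 0.0880 and 0.144. The call of 1428543_at was also lost without MT replicate 2 (adjusted p = 0.0686), whereas the differences themselves kept their sign under every alternative tried.

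Gmps, the synthetase that aminates xanthosine monophosphate to GMP, was read by 3 probe sets. The brightest, 1433567_at, gave signals of 1059 and 932 at 3 months, 1315 and 1174 at 12 months and 1659 and 1690.4 at 19 months in WT mice, and 2207 and 2138 in MT mice. No group overlapped another on this probe set, and the order of the 4 groups was that of Ppat. MT exceeded WT at 3 months by 1.13 ± 0.14 (interval 0.80 to 1.45, adjusted p = 0.0145), or 2.19-fold. The steps between neighbouring groups were 0.32 (adjusted p = 0.582), 0.43 (adjusted p = 0.343) and 0.38 (adjusted p = 0.322), and none passed. The difference between WT at 19 and 3 months was 0.75 ± 0.14 (interval 0.43 to 1.08, adjusted p = 0.131). It had the lowest adjusted p of the member probe sets with age, without passing.

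The dimmer Gmps probe sets varied more between arrays. On 1455057_at the WT signals were 206 and 158, 209.7 and 285, and 257 and 247 at 3, 12 and 19 months, and the MT signals were 227 and 332. On 1435656_at they were 68.4 and 93.7, 95.5 and 154, and 107 and 111, with 121 and 248 in MT mice. In both, the MT arrays were above the 3-month WT arrays but not above all arrays of 12 months. The differences between MT and WT at 3 months were 0.61 ± 0.27 (adjusted p = 0.370) and 1.11 ± 0.41 (adjusted p = 0.280), so that 1 of the 3 Gmps probe sets was called. The call of 1433567_at was lost when any 1 of the 4 arrays compared was left out, with an adjusted p between 0.0531 (without MT replicate 1) and 0.144 (without WT_3m replicate 2). Against WT of 12 months its difference was 0.81 (adjusted p = 0.0543).

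**Figure D1:**
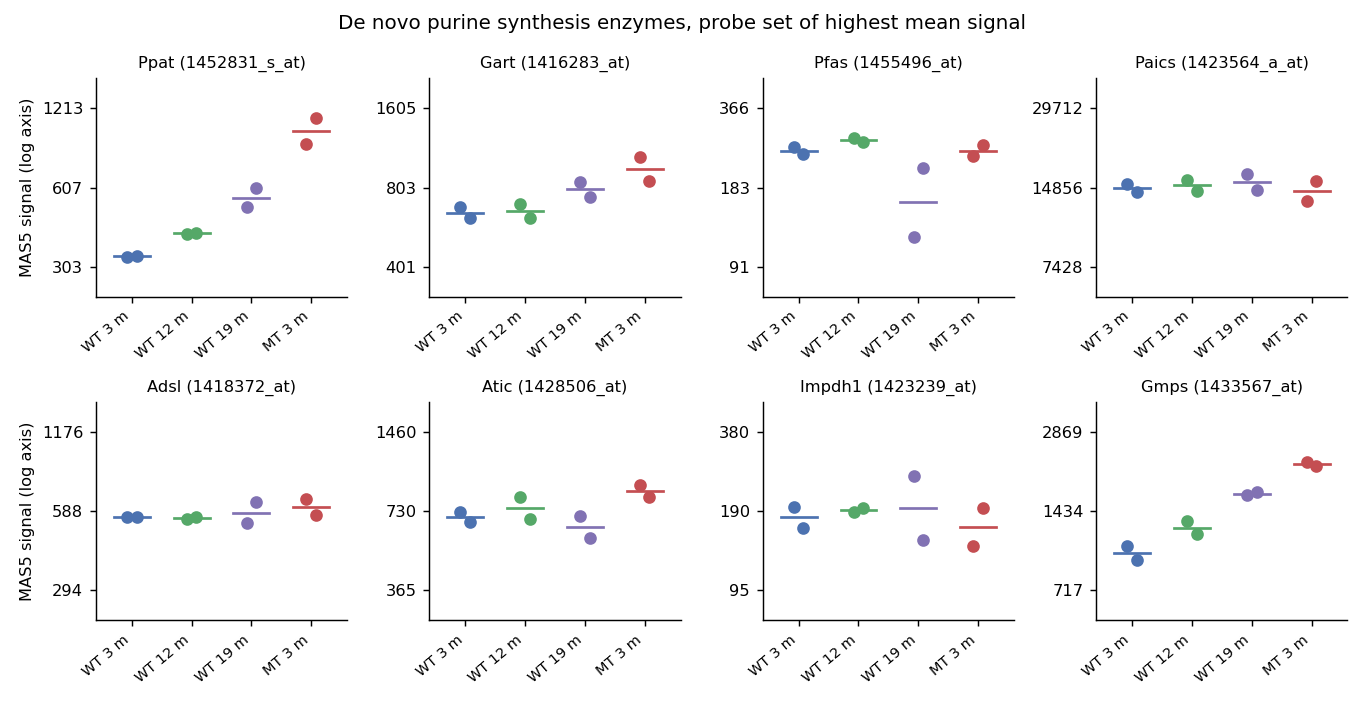
MAS5 signal (log axis, the same span in every panel) of the brightest probe set of each of the 8 measured enzymes by group. Points are single arrays and a bar is the geometric mean of a pair. The groups of Ppat and Gmps form a ladder from WT at 3 months to MT, with Ppat at 331 and 334 in the lowest group and 887 and 1113 in the highest, while the Paics arrays lie between 13154 and 16778 in all groups.

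The enzymes between Ppat and IMP did not pass the test in MT livers. Gart, a protein of 3 activities that acts at several of the early steps, was read by 4 probe sets. On the brightest, 1416283_at, the WT signals were 674 and 614, 692 and 614, and 842 and 740.2 at 3, 12 and 19 months and the MT signals 1049 and 846. The MT arrays were the highest here too, by 0.55 ± 0.18 over WT at 3 months (interval 0.16 to 0.95, adjusted p = 0.214). On 1424436_at the signals were 399.6 and 376, 437 and 374, and 386 and 411 in WT, and 517 and 449.9 in MT, a difference of 0.31 ± 0.18 (adjusted p = 0.494). The other Gart probe sets, 1441911_x_at and 1424435_a_at, ranged from 41.1 to 228 with arrays of a group as far apart as those of different groups, and their differences were 0.04 ± 0.45 and 0.05 ± 0.58.

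Pfas, the amidotransferase that acts before the first ring closes, gave signals of 261 and 245, 282 and 271, and 119 and 218 in WT livers of rising age and 240.0 and 266 in MT livers. The MT arrays lay on either side of the young WT arrays, and the interval of the difference from WT at 3 months was -0.64 to 0.64. The 19-month arrays were the lowest of all 8. Their difference was -0.65 ± 0.28 from 3 months (interval -1.29 to -0.01, adjusted p = 0.390) and -0.78 ± 0.28 from 12 months (adjusted p = 0.384), and the arrays of this pair were themselves far apart.

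Paics, which carboxylates the first closed ring and adds aspartate to it, had the brightest probe sets of the members. On 1423564_a_at the WT signals were 15274 and 14235, 15912 and 14457, and 16778 and 14578 at 3, 12 and 19 months, and the MT signals 13154 and 15768. All groups overlapped, and the difference of MT from WT at 3 months was -0.03 ± 0.14 (interval -0.34 to 0.27, adjusted p = 0.945). That interval lies below the interval of Ppat in the same comparison, 1.17 to 1.99, although the difference between the neighbouring genes was not itself tested. On 1423565_at the MT arrays were the highest of all. The WT signals there were 9142 and 8371, 10081 and 9273, and 9269 and 9578, with 10189 and 10893 in MT, a difference of 0.27 ± 0.12 (interval 0.003 to 0.533, adjusted p = 0.365). On 1436298_x_at, whose suffix marks probes that can match other sequences, they were 7913 and 7660.2, 4164 and 6033, 8366 and 9361, and 5175 and 9617 in MT. The last probe set thus disagreed with the others at 12 months, where it lay below 3 months by -0.64 ± 0.27 (adjusted p = 0.556) and 1423565_at above by 0.14 ± 0.12 (adjusted p = 0.791), and its MT arrays differed almost as much as the furthest WT arrays.

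Adsl, the lyase that acts both before IMP and on the branch to AMP, gave signals of 559 and 557, 549.6 and 560.1, and 528 and 635 in WT and 655 and 569 in MT mice. The MT arrays lay just above the young WT arrays, by 0.13 ± 0.17 (interval -0.26 to 0.51, adjusted p = 0.810). Atic, which closes the ring to give IMP, gave 722 and 664, 828 and 681, and 697 and 579 in WT and 919.6 and 825 in MT on 1428506_at. On 1452811_at it gave 224 and 211, 242 and 200.2, 259.9 and 219.6, and 387 and 285. The MT arrays were above both arrays of WT at 3 months on each, by 0.33 ± 0.18 (adjusted p = 0.462) and 0.61 ± 0.23 (interval 0.09 to 1.13, adjusted p = 0.295). Impdh1, one of the dehydrogenases at the entry to the GMP branch, gave 198 and 164, 189.5 and 195, and 259 and 148 in WT and 139.6 and 195 in MT. Its groups overlapped, and the difference was -0.13 ± 0.31 (interval -0.83 to 0.58, adjusted p = 0.908). The branch to GMP therefore held a called enzyme, Gmps, and an enzyme without a call, Impdh1.

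Counted over the route, 3 of the 17 tested member probe sets were called between MT and WT at 3 months, all higher and from 2 of the 8 genes, where 0.249% of all tested probe sets were called higher and 0.266% lower. For 11 of the 17 both MT arrays exceeded both WT arrays of 3 months, against 24% of all tested probe sets, and for 0 of 17 both were lower, against 21.7%. The median difference of the members was 0.31, beside 0.02 over all tested probe sets. Probe sets of 1 gene share their transcript, so the 17 values are not independent. For the other 6 probe sets the MT and WT arrays overlapped, with differences from -0.14 to 0.05.

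**Figure D2:**
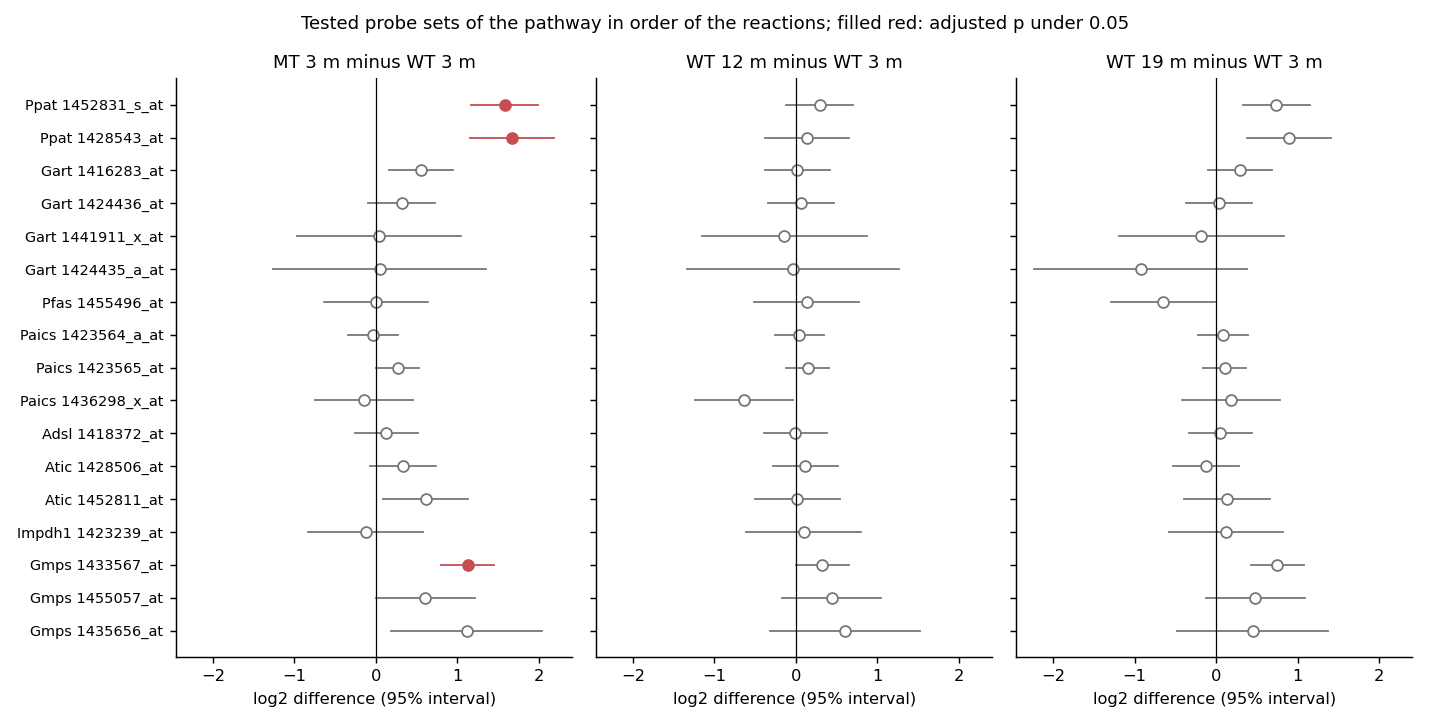
Log2 difference with its 95% interval from the limma fit for the 17 tested probe sets in the order of the reactions, for MT, 12-month WT and 19-month WT livers, each against WT at 3 months (n = 2 arrays a group). Filled red points mark adjusted p under 0.05, which only Ppat (1.58 and 1.67) and 1 Gmps probe set (1.13) reached, all in the MT panel, and the 3 panels share the 3-month WT arrays.

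With age in WT mice no member probe set was called. At 19 against 3 months, 0 of 17 were called beside 0.0355% of all tested probe sets, 8 of 17 were higher on both arrays (background 26.4%) and 1 was lower on both (background 21.8%). The probe sets higher on both arrays were those of Ppat and Gmps, Gart 1416283_at (0.30 ± 0.18), and Paics 1423565_at (0.11 ± 0.12) and 1436298_x_at (0.18 ± 0.27), and the lower was Pfas. At 12 against 3 months, 0 of 17 were called beside 0.0133%, 7 of 17 were higher on both arrays (19.3%) and 1 was lower (20.8%). The probe sets that were higher again included all those of Ppat and Gmps that were tested, with Gmps at 0.32, 0.44 and 0.60 and Ppat at 0.29 and 0.14. At 19 against 12 months, which uses no 3-month array, 0 of 17 and 0 of 22519 were called, 2419 of all probe sets were under an unadjusted p of 0.05, 5 of 17 were higher on both arrays (23.8%) and 1 was lower (17.5%). Ppat differed here by 0.45 ± 0.18 and 0.76 ± 0.23 (adjusted p = 0.424 and 0.311) and Gmps 1433567_at by 0.43 ± 0.14, while its dimmer probe sets were at 0.04 and -0.15. The Ppat and Gmps values of the MT and age comparisons against 3 months share the 3-month WT arrays and are given side by side only.

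Whole liver holds several cell types, and fewer cells of a type and less RNA per cell cannot be told apart in it. The summed signal of 6 B and plasma cell markers, 4 of them above the array median on every array, was 1109 and 1418 in WT at 3 months, 4927 and 3760 at 12 months and 8458 and 7641 at 19 months, and 1148 and 1757 in MT. Most of the sum at 12 and 19 months came from Igha, Ighm and Jchain. Cd79b was at 143 and 145, 99.5 and 128, and 151 and 206 at these WT ages. Ms4a1 was at 119 and 85.2, 61.8 and 97.9, and 140 and 155, and Cd79a was dim throughout. The 9 Kupffer and macrophage markers, all above the median on every array, summed to 24390 and 23798 at 3 months, 27665 and 43936 at 19 months and 18356 and 20579 in MT. The 7 neutrophil markers, 2 of them above and 2 below the median on every array, summed to between 854 and 958 at 3 months, between 1696 and 2028 at 19 months and between 1213 and 1499 in MT. Most of this sum was S100a8 and S100a9. Of the dimmer markers, Elane (26.1 and 13.5 in MT, 103 and 35.3 in young WT) and Camp (6.51 and 13.3, 45.9 and 23.1) were lower in MT. Mpo was higher (123 and 116, 65.8 and 67.7), and Ngp and Ltf overlapped. The 11 hepatocyte markers summed to between 414909 and 428690 in WT at 3 months, between 348204 and 382179 at 19 months and between 447022 and 459848 in MT. The 9 T and NK cell markers overlapped, with sums of 878 and 1055 at 3 months and 880 and 810 at 19 months. Of all these markers Igha, the immunoglobulin A heavy chain, was called between 19 and 3 months (3.34, adjusted p = 6.5e-04) and no Kupffer, neutrophil, T and NK cell or hepatocyte marker was. The 8 stellate and fibroblast markers summed to 17647 and 16666 in WT at 3 months, 14126 and 15615 at 19 months and 17137 and 17462 in MT. The 4 erythroid markers summed to 387 and 346, 488 and 413, and 645 and 412 in that order. At 19 months Alas2 was higher and Klf1 lower. The 8 endothelial markers summed to 16778 and 15301, 15374 and 15631, and 12694 and 16519. Of these sums, those of B and plasma cell, Kupffer, neutrophil, hepatocyte, stellate and erythroid markers did not overlap between old and young WT livers. Their part in the Ppat and Gmps values was not tested. The log2 ratio of the 3' to the 5' control probe set of pyruvate carboxylase was between 3.88 and 4.25 in WT at 3 months, between 4.77 and 5.86 at 19 months and between 3.88 and 3.93 in MT. For beta-actin it was 1.22 and 1.09, 1.23 and 1.25, and 0.97 and 1.48 in the same order. For Gapdh it was -0.59 and -0.51, -0.39 and -0.44, and -0.62 and -0.38. The part of these ratios was not tested either. In MT livers, where Ppat and Gmps were called, the B and plasma cell sum overlapped that of young WT livers, the Kupffer sum was below its young WT values and the hepatocyte and neutrophil sums were above theirs. The T and NK cell sum was 643 and 644 in MT, below young WT livers. Most of that gap lay in Gzma (190 and 275 in young WT, 65.5 and 47.5 in MT) and Ccl5 (214 and 208, 78.3 and 116). Cd3d was lower too, though dim, and Thy1 was higher (44.2 and 70.5, 92.6 and 104). The remaining T and NK cell markers overlapped. The sum of 4 bile duct markers, none of which was above the array median on every array, was 288 and 436 in MT against 219 and 205. The 8 exocrine pancreas markers, 4 of them below the median on every array, summed to 5068 and 4532 in WT at 3 months, 2082 and 1804 at 19 months and 2251 and 2167 in MT. Nearly all of this was Cela1, at 4712 and 3993, 1824 and 1399, and 1974 and 1841 in the same order, so the sum describes that gene. No marker of any of these lists was called between MT and WT at 3 months, where 0.515% of all tested probe sets were. The part of the markers in the Ppat and Gmps calls was not tested.

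The genes that feed, bypass or use the route were described from lists, at 1 probe set a gene. The median difference over 10976 genes between MT and WT at 3 months was 0.0045, and that of the 8 route enzymes was 0.23, with 2 called. Of 5 genes of PRPP synthesis, the substrate of Ppat, none was called, the median was -0.06, and Prps2, a PRPP synthetase, was at -0.54 ± 0.19 (adjusted p = 0.242), with Prps1l3 at 0.32 and Prps1 at 0.17 (adjusted p = 0.414 and 0.686). Neither adenylosuccinate synthase, which opens the branch to AMP, was called (Adss 0.06, Adssl1 -0.14). Of 6 salvage genes, which return free bases and nucleosides to nucleotides, none was called, the median was -0.02, and Aprt, which recovers adenine, was at -0.51 ± 0.18 (adjusted p = 0.269), with the nucleoside kinases Adk at 0.18 and Dguok at -0.30. Calls were absent from the supply of PRPP, from the AMP branch and from salvage in this comparison, which called 0.515% of all tested probe sets. At that share a list this short is not likely to hold a call, so the absence says little about these genes.

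Downstream, none of 14 tested genes of purine breakdown was called (median -0.05). Nt5e, the ecto-5'-nucleotidase that cleaves AMP to adenosine, had signals of 3602 and 4078 in WT at 3 months and 2218 and 1329 in MT, a difference of -1.16 ± 0.30 (adjusted p = 0.127). The cytosolic nucleotidase Nt5c2 was at 0.52 and the aldehyde oxidase Aox3 at -0.33 (adjusted p = 0.292 and 0.323), while Xdh (0.10) and Uox (-0.14), which make and degrade urate, were near 0. Of 9 nucleotide kinases and reductase genes none was called (median 0.10), with Itpa, which removes ITP, at 0.54, Ak4, a mitochondrial adenylate kinase, at 0.48 and Rrm1, the large subunit of ribonucleotide reductase, at 0.65 (adjusted p = 0.201, 0.229 and 0.299). Of 16 genes of folate one-carbon supply, the source of ring carbons, none was called (median -0.03), and Mthfd1l, a mitochondrial formate producer, was at 110 and 87.1 in WT and 165 and 367 in MT (1.33 ± 0.43, adjusted p = 0.214). Fpgs, which retains folates in the cell, was at -0.47 (adjusted p = 0.174) here and called lower against WT at 12 months (-1.07, adjusted p = 0.0286), and Gldc, of the glycine cleavage system, was at -0.37. Of 8 genes of pyrimidine synthesis none was called (median 0.15), and Ctps, the CTP synthase, was at 109 and 47.0 in WT and 303 and 208 in MT (1.81 ± 0.40, adjusted p = 0.0846), the highest value of that list, with the uridine kinase Uck2 at 0.75 and Ctps2 at -0.49. The lists named so far held no call between MT and WT at 3 months, where 0.515% of all tested probe sets were called. Single genes such as Ctps and Nt5e were past a log2 difference of 1 in either direction.

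Among 9 regulators that include MYC and ATF4, which are known to drive purine synthesis genes, none was called and the median was -0.04. Myc (-0.87, adjusted p = 0.445), Mycl (-1.03, adjusted p = 0.186) and Max were lower on both MT arrays than on the young WT arrays. Mnt, a MYC antagonist (0.52), and Mxd4 were higher on both. Of all tested probe sets, 21.7% were lower in this way and 24% higher. Both Myc signals in MT, 49.8 and 41.3, were below the array medians. Atf4 overlapped, at 2862 and 2987 in WT and 2607 and 3145 in MT. The list of S phase and mitosis genes was the one with a further call. Of its 19 genes on the array 14 were tested, and Mki67, Cdc6, Bub1, Aurka and Plk1 were too dim. In MT 13 of the 14 were above 0, beside 52.3% of all tested probe sets, and the median of the 14 was 1.06. Mcm4, part of the helicase that opens replicating DNA, was called (243 and 169 in WT, 622 and 649 in MT, 1.65 ± 0.24, adjusted p = 0.0252). Mcm2 was at 1.56 (adjusted p = 0.135) and Ccne2, a cyclin of S phase entry, at 1.52 (adjusted p = 0.126). Mcm3 was at 0.99 (adjusted p = 0.190) here and called against WT at 12 months (1.79, adjusted p = 0.0443). Without a call, Mcm5 (303 and 148 in WT, 480 and 593 in MT) and Mcm6 (186 and 39.8, 316 and 313) were higher on both MT arrays. So were Ccne1 (31.9 and 92.9, 137 and 143), Ccnd1 (4399 and 2768, 8753 and 6748.5) and 24% of all tested probe sets. Ccna2 (0.44), Pcna (0.33), Cdk1 (0.27), Top2a (0.21), Mcm7 (0.10) and Tk1 (-0.08) had overlapping arrays. These values stand beside the Ppat and Gmps calls in the same livers, and their part in the enzyme values was not tested. At 19 against 3 months in WT the median of the S phase list was 0.15 and that of the route enzymes 0.10, with no call in either.

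**Figure D3:**
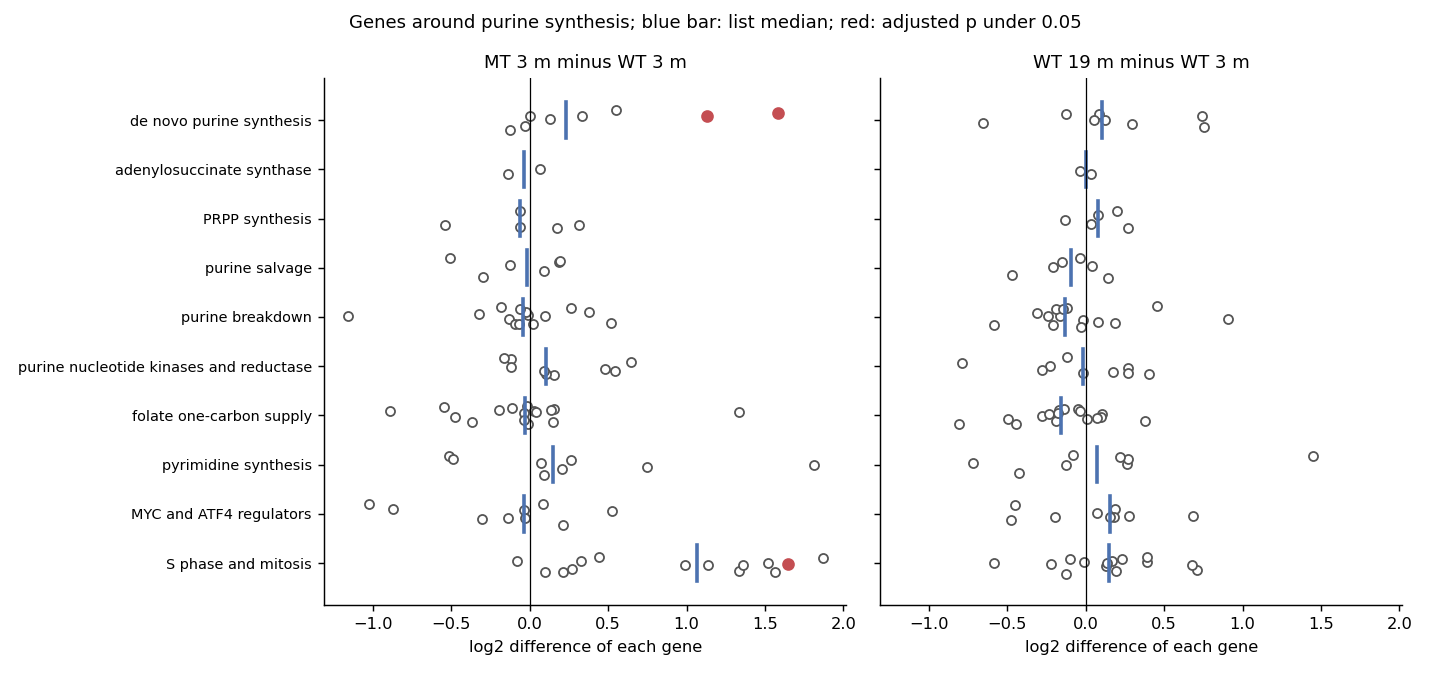
Log2 difference of each tested gene (1 probe set a gene) in the route and in 9 lists around it, for MT and for 19-month WT livers against WT at 3 months, with a blue bar at the median of each list and red points at adjusted p under 0.05. In the MT panel the S phase list has the highest median, 1.06, and the called genes are Ppat, Gmps and Mcm4, whereas no gene shown is called in the age panel.

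The genes whose log2 signal over the 8 arrays was most like that of Ppat (1452831_s_at) were Hivep2 (Pearson r = 0.989, Spearman rho = 0.976), Dus1l (r = 0.984, rho = 0.929), Yipf6 (r = 0.974, rho = 0.905), Kpna2 (r = 0.970, rho = 0.929) and Pcmt1 (r = 0.968, rho = 0.976). The 8 points fall into 4 groups and share their arrays and scaling, so that these values describe a likeness of pattern. Because Ppat was highest in MT, genes chosen in this way tend to be so too. Their differences between MT and WT below, with the adjusted p, are therefore no separate result. Kpna2, an importin that carries proteins into the nucleus, was at 1822 and 1698 in WT at 3 months, 2292 and 1927 at 12 months, 2481 and 2817 at 19 months and 4514 and 4131 in MT (1.30, adjusted p = 0.0115). Pcmt1, which repairs damaged aspartyl residues of proteins, was at 325 and 339, 395 and 390.2, and 492 and 543 in WT and 641 and 645 in MT (0.95, adjusted p = 0.0463). Hivep2, a zinc finger protein, was at 1.13 (adjusted p = 0.135). Among the members, Gmps 1433567_at came nearest to Ppat (r = 0.949, place 32 of 19278 probe sets), followed by Paics 1423565_at (r = 0.820, place 516) and Gart 1416283_at (r = 0.817, place 531). The brightest Paics probe set had r = -0.119 and Pfas r = -0.045, so some members were like Ppat in pattern and others were not.

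**Figure D4:**
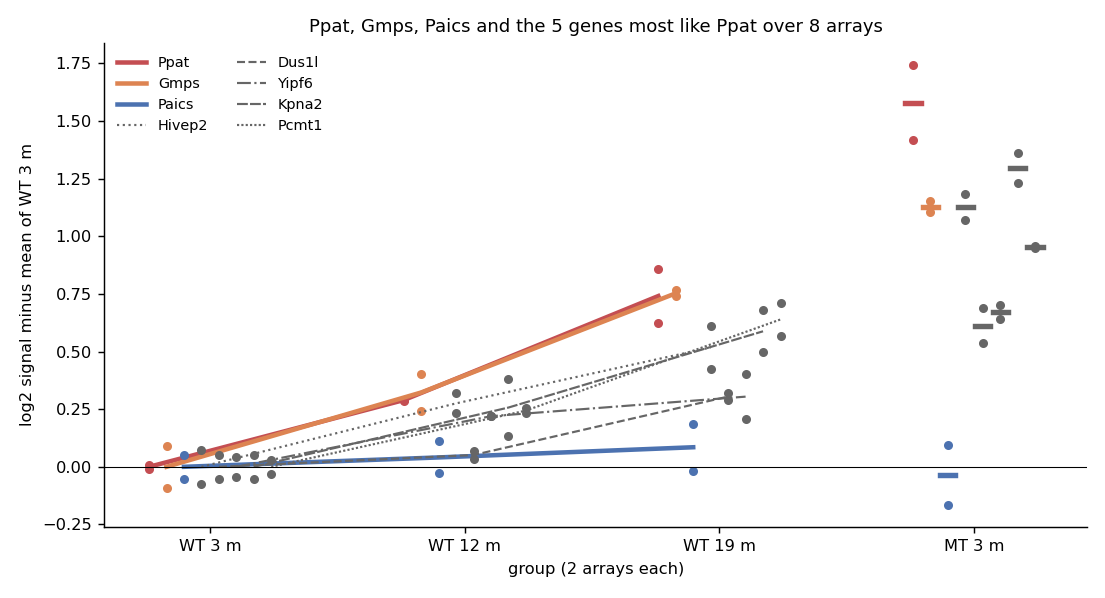
Log2 signal minus the mean of WT at 3 months for Ppat, Gmps, Paics (brightest probe sets) and the 5 genes most like Ppat, with a point for each array, lines through the means of the 3 WT ages and separate bars for MT. Ppat and Gmps lie together at 19 months (0.74 and 0.75) and apart in MT (1.58 and 1.13), while Paics is at -0.03 in MT.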

How the data were processed

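Total RNA of mouse liver was measured on 8 Affymetrix arrays of the mouse genome, and the deposited table holds 1 MAS5 intensity per probe set and array, linear and scaled by the authors to a common trimmed mean. MAS5 settings and detection calls are not given in the sources used here, so the methods' presence filter was not applied. Array medians were between 74.5 and 82.8, and the number of arrays limits the precision. Of 45037 probe sets without controls, 34945 had 1 gene symbol, 932 several and 9160 none in the platform annotation, and 34741 of the named ones matched a RefSeq gene by Entrez ID.

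Signals were floored at 1 and log2 transformed, and the upper 50% by mean log2 signal (22519) entered limma 3.58.1 in R 4.3.3 (lmFit, eBayes with a variance trend), with 4 groups in 1 fit (4 residual and 5.37 prior degrees of freedom). With 2 arrays against 2, an exact two-sided permutation test cannot go below p = 0.333. Groups came from the sample descriptions, which name no batch. All member probe sets are named, and of each list of pathway genes those called in a comparison and the 3 with the largest moderated t between MT and WT at 3 months, each read by its brightest probe set. Cell type marker lists are given as sums. Xdh, Uox, Max, Mxd4, Atf4, the single cell type markers and the S phase genes other than Mcm4, Mcm2, Ccne2 and Mcm3 were named after their values were seen. The members and lists were chosen with earlier results of these data known. The fit was tested on simulated data. Alternatives were other normalizations, log transforms, filters, priors, thresholds, groups in the fit and reference groups, the replicate number as a block, the methods' t-test and leaving out each array. Promoters were scanned with Python 3.11.15. Pfas had no promoter entry.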

Additional observations from a re-analysis of the deposited data

How the results depend on the processing

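The Ppat and Gmps differences between MT and WT at 3 months stayed above 0 under every alternative, with ranges of 0.84 to 1.74 (1452831_s_at), 0.78 to 1.98 (1428543_at) and 0.38 to 1.22 (1433567_at), but their calls depended on the test. The count of member probe sets called, 3, fell to 0 without a variance trend (adjusted p = 0.0824, 0.0901 and 0.0982), to 0 with the methods' t-test after Benjamini-Hochberg, to 0 with WT_19m as the reference, and ranged from 0 to 3 when 1 array was left out. All probe sets called in this comparison, 116, became 413 at adjusted p under 0.1, 177 in the upper 25% of mean signal, 9 without a trend, 233 with robust eBayes, 62 against WT_19m, 179 against the mean of the 3 WT groups, 890 by the methods' t-test and 0 after its adjustment, and 13 to 255 with 1 array left out. For WT_12m against WT_3m, 3 became 5 at adjusted p under 0.1, 5 with centred arrays, 12 with only the 2 groups, 0 without a trend, 502 and 0 by the methods' t-test, and 0 to 20 with 1 array left out. For WT_19m against WT_3m, 8 became 57, 21 with centred arrays, 3 in the upper 25%, 135 with only the 2 groups, 1 without a trend, 750 (3 members: both Ppat probe sets and Gmps 1433567_at) and 0 by the methods' t-test, and 2 to 30 with 1 array left out. For WT_19m against WT_12m, 0 became 4, 3 without a filter, 5 with only the 2 groups, 2 with robust eBayes, 524 by the methods' t-test (1 member, Ppat 1428543_at) and 0 to 11 with 1 array left out. Where leaving out an array left 1 in a group, that array was assumed to vary like the other groups. The cause of these shifts was not tested.

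The main fit did not pair arrays by replicate number. Between groups, the correlations of deviations by replicate number were from -0.03 to 0.14. Whether the numbers mark a shared handling of arrays was not tested. With the number as a replicate block the count at 19 months became 25, and the block changed no other count by over 1.5 times and no member call.

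Members without a call whose sign turned between MT and WT at 3 months were Paics 1423564_a_at (0.017) and Pfas (3.3e-04) under quantile normalization, Paics 1436298_x_at against WT_12m (0.49) and the mean of WT (0.0080), and Pfas against WT_19m (0.65) and the mean of WT (0.17). Leaving out 1 array gave Impdh1 from -0.37 to 0.12, Paics 1423564_a_at from -0.16 to 0.10, Paics 1436298_x_at from -0.59 to 0.30, Gart 1424435_a_at from -0.38 to 0.47, Gart 1441911_x_at from -0.55 to 0.63 and Pfas from -0.075 to 0.075.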
